A study of Rattus norvegicus with 5 samples.

Results

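Interleukins are secreted messengers between immune and tissue cells, and the genes described here are those of the interleukin ligands, their receptor chains and the receptors of the interferons. They were chosen by symbol in the combined gene table: names that begin with Il and a digit, or that are Ifnar, Ifngr or Ifnlr with a digit, without Il6, Il6r and Il6st. The rule took 83 of 33014 genes, namely 43 receptor chains, 39 ligands or antagonists and 1 enzyme. The data were 5 RNA-seq libraries of a single group, cultured wild-type Sprague Dawley rat dorsal root ganglion (DRG) cells. The ganglia, which hold the cell bodies of sensory neurons with their glia, were taken at postnatal day 10 from a litter of 10 pups, dissociated and plated at 5000 cells per well. Every culture received PBS after 1 day and was lysed after 8 days, and each library pooled 3 wells. No treated group was analysed here, so the comparisons are between genes within libraries. The labels do not say whether the 5 samples are separate cell preparations, so all p-values measure the spread between these libraries alone, which may be technical.

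Most interleukins act through receptors built of at least a pair of chains, a private chain that recognises the ligand and a chain shared by several ligands. Chains of the type I and type II (interferon and IL-10) families bind JAK kinases, which phosphorylate STAT factors, and SOCS proteins restrain them. Receptors of the IL-1 family instead recruit Myd88 and the IRAK kinases, and those of the IL-17 family recruit the adaptor encoded by Traf3ip2. In sensory ganglia, receptors for several of these cytokines have been described on nociceptors in mice, while macrophages and glia are known sources of the ligands.

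Libraries held 21596608 to 27913098 estimated reads. Levels are in TPM, a measure scaled to library size and to transcript length, so that genes can be compared within a library. The tissue label was checked against cell type markers: all 10 neuron, 9 Schwann cell, 5 satellite glia, 8 fibroblast and 13 macrophage markers were detected, that is, reached 1 TPM in every library. None of 9 lymphocyte markers was detected, with Cd3d, Cd3e, Nkg7 and Ncr1 at 0, and their sum was 0.758 to 1.11 TPM. Mast cell markers were detected for 2 of 6 (Kit and Hdc), with Fcer1a and Tpsb2 at 0. For neutrophils 2 of 6 were detected, with Elane at 0, and for endothelium 2 of 7. In these bulk libraries, fewer cells of a type and less RNA per cell cannot be told apart.

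Receptor genes filled most of the upper ranks, and most ligand genes lay near or at 0. Of the 83 genes 32 were detected, a share of 38.6%, beside 41.3% of all genes of the table. The receptor chains were detected for 21 of 43 (48.8%) and the ligands or antagonists for 10 of 39 (25.6%). Of the 18 genes with a mean of at least 10 TPM, 15 were receptors and 3 were ligands or antagonists. Summed over genes, receptors came to 529 TPM and ligands or antagonists to 141 TPM. The detected genes had a median of 12.6 TPM, beside 20.5 TPM for all detected genes of the table. Ifngr1, the highest, was number 2054 of all genes by mean TPM.

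**Figure D1:**
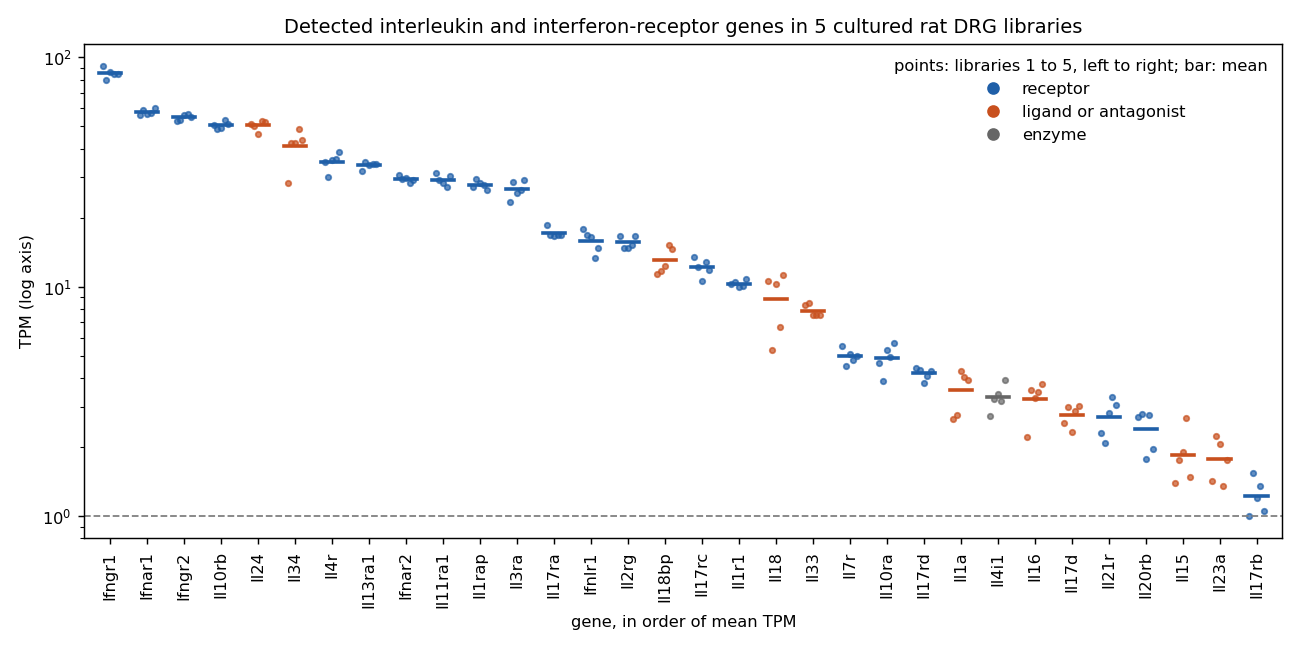
TPM on a log axis for the 32 detected genes, with 1 point per library (replicates 1 to 5 from left to right) and a bar at the mean; blue marks receptors, orange ligands or antagonists and grey the enzyme gene Il4i1. Receptors take the first 4 places, and Il24 and Il34 are the only ligands among the 12 highest; the dashed line is the detection threshold of 1 TPM.

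Of the 51 undetected genes, 9 were at 0 in all libraries: Il3, Il5, Il9, Il12b, Il13, Il17c, Il22, Il36a and Il1f10, all of them ligands. A count of 0 allows up to 0.0539 TPM for Il12b and up to 0.233 TPM for Il5, the ends of the range (3 reads over the 5 libraries; counting error only). A further 6 genes reached 1 TPM in some libraries but not in all. Just inside the threshold lay Il17rb, a receptor chain for IL-25, at 1.23 ± 0.221 TPM (SD, n = 5 here and below). Just outside lay Il21, a T cell cytokine, with 1.91, 0, 1.69, 1.72 and 1.07 TPM in replicates 1 to 5. The zero of replicate 2 alone kept Il21 below the threshold, but its values rest on only 20 estimated reads over the 5 libraries.

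The interferon and IL-10 receptor family held the largest sum of any role, 302 ± 4.54 TPM, with 8 of 11 chains detected. Ifngr1, the ligand-binding chain of the interferon gamma receptor, had 91.3, 79.9, 86.4, 84.4 and 85.0 TPM in replicates 1 to 5. Ifngr2, its signalling partner, had 52.7, 53.5, 55.9, 56.7 and 54.7 TPM. The ranges of the chains did not overlap, and Ifngr1 was 0.64 ± 0.0882 higher than Ifngr2 on the log2(TPM + 0.1) scale, in 5 of 5 libraries (limma, adjusted p = 2.25e-05). Counted as CPM of named transcripts, that is, scaled to library size but not divided by length, the order turned round (-0.13, adjusted p = 0.0211), and in TPM sums of named transcripts the difference was 0.38. The p-values of such pairs come from a limma fit of the log2 ratio of every gene to the second gene of the pair, with Benjamini-Hochberg adjustment over all 24484 genes of the fit. Over all these fits together 93.3% of ratios passed the threshold of 0.05, so a call of a pair is near the background, and the size of the difference is what it adds. All ratios of a fit share the values of the second gene, which makes these p-values too small where that gene is low. An adjusted p from each ratio's own variance, an alternative chosen after seeing the data, is therefore given for pairs with an undetected gene. Differences in length bias, base composition or shared sequence between genes are not part of these errors.

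Both chains of the type I interferon receptor were detected as well. Ifnar1 had 55.9, 58.8, 56.7, 57.2 and 59.8 TPM in replicates 1 to 5. Ifnar2, which exists in signalling and soluble forms, had 30.8, 29.6, 29.8, 28.3 and 29.1 TPM. Every library of Ifnar1 lay above every library of Ifnar2, with a difference of 0.96 ± 0.0735 (limma, adjusted p = 1.92e-06). It was 3.87 in sums of named transcripts, which hold 13.4% of the Ifnar2 level. Ifnar2 overlaps the uncharacterised gene LOC120095615 (11.1 TPM) in the RefSeq annotation, and its level is uncertain because the strand setting of the quantification is not known. Between the receptors, Ifngr1 exceeded Ifnar1 by 0.56 ± 0.101 in 5 of 5 libraries (limma, adjusted p = 6.09e-05). That order also turned round in CPM (-0.72), which is not divided by length, and was 0.53 in TPM sums of named transcripts. The leading named transcript had 3903 bases for Ifnar1 and 1854 for Ifngr1.

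Il10rb, the chain shared by the receptors of IL-10, IL-22 and the type III interferons, had 50.7, 48.8, 49.0, 53.3 and 51.0 TPM in replicates 1 to 5. Its partners were lower. Il10ra, the private chain for IL-10, had 4.63, 3.89, 5.32, 4.96 and 5.69 TPM, and Ifnlr1, the private chain for type III interferons, had 17.9, 16.8, 16.5, 13.4 and 14.8 TPM. Il10rb exceeded Il10ra by 3.35 ± 0.195 (limma, adjusted p = 5.83e-09) and Ifnlr1 by 1.67 ± 0.206 (limma, adjusted p = 1.72e-06), each in 5 of 5 libraries. Against Ifnlr1 the difference was 3.34 in sums of named transcripts, which hold 31.6% of the Ifnlr1 level. Il10ra followed the macrophage marker list between libraries: both were lowest in replicate 2 and highest in replicate 5, and the summed list was 1851, 1429, 2118, 2074 and 2253 TPM in replicates 1 to 5. The part of macrophage content in the Il10ra level was not tested.

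Ifnar2, Il10rb, Ifnar1 and Ifngr2 lie side by side on chromosome 11, and all 4 were detected, at means of 29.5 to 57.7 TPM. Their upstream sequences are shown for that reason: the 250 bases before each annotated start, read 5′ to 3′ on the gene's strand from the RefSeq promoter table of build GRCr8, with every CpG dinucleotide in capitals.
Ifnar2 (chr11:44099520-44099769, plus strand): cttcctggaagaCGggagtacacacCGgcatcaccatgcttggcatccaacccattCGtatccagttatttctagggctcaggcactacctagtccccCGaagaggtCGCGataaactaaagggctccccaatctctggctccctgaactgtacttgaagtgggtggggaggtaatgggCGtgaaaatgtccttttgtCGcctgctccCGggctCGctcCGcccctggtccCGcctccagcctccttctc
Il10rb (chr11:44132386-44132635, plus strand): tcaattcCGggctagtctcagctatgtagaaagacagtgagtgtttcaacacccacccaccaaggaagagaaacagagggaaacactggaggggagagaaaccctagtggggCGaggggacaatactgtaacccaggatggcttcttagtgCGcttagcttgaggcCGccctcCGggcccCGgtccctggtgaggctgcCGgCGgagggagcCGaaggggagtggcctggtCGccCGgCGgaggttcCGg
Ifnar1 (chr11:44211519-44211768, plus strand): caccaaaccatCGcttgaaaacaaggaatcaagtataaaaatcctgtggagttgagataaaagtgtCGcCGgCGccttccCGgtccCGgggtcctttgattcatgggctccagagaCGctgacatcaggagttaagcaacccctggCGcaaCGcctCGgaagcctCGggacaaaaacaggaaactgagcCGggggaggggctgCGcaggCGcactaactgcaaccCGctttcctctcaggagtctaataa
Ifngr2 (chr11:44265453-44265702, plus strand): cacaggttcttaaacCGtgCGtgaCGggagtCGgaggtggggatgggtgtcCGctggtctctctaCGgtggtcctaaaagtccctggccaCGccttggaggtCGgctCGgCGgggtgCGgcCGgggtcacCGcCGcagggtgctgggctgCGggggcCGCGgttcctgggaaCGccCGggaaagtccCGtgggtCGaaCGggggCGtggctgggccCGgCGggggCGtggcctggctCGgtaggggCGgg
The counts of CpG were 12 for Ifnar2, 13 for Il10rb, 15 for Ifnar1 and 28 for Ifngr2, all above the median of 6 over the 27457 genes with an entry. Among detected genes of the TPM table the median was 16, and among undetected genes it was 4. These are counts of letters in a window, with no measurement of methylation.

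The ligands of these receptors were not detected. Of the 6 interferon genes from the pathway list in the table, none was, and Ifnb1, Ifng and Ifna1 were at 0 in all libraries. Ifnl3 was highest of them with 0.186, 0.799, 0, 0 and 0 TPM in replicates 1 to 5. Il10 itself had 0.299, 0.192, 0.355, 0.831 and 0.414 TPM. These levels stand beside Ifngr1, Ifnar1 and Il10rb, whose lowest single value was the 48.8 TPM of Il10rb in replicate 2. The partner chains Ifngr2, Ifnar2, Ifnlr1 and Il10ra were lower, with lowest values of 52.7, 28.3, 13.4 and 3.89 TPM.

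Il24 was the highest ligand of all. It encodes a cytokine of the IL-10 family that signals through Il20ra with Il20rb, or through Il22ra1 with Il20rb. Il24 had 51.1, 50.05, 46.5, 52.8 and 52.3 TPM in replicates 1 to 5, a mean of 50.6 ± 2.50 TPM, number 3392 of all genes. Its SD on the log2 scale was 0.0727, beside a median of 0.0803 over all detected genes. Il24 held 98.9% ± 0.440 of the summed TPM of the 5 IL-10 family ligands, and the others, Il10, Il19, Il20 and Il22, were all undetected.

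Receptor chains for IL-24 were incomplete at the RNA level. Il20rb, the shared chain, had 2.70, 2.78, 1.77, 2.76 and 1.96 TPM in replicates 1 to 5. Il20ra had 0.0361, 0.116, 0, 0.0960 and 0 TPM, and Il22ra1 had 0.631, 0.263, 0.224, 0.218 and 0.606 TPM. Il24 did not go below 46.5 TPM in any library, and no library of either private chain reached 1 TPM. Il22ra2, a soluble receptor for IL-22, was at 0.0422 ± 0.0158 TPM.

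Il24 is the first gene of a row on chromosome 13 that goes on with Il20, Il19 and Il10, and it alone of the 4 was detected. The 250 bases upstream of Il24, Il20 and Il19 are shown so that the detected gene can be set against its undetected neighbours (RefSeq, build GRCr8, 5′ to 3′ on the gene's strand, CpG in capitals); Il10 has no entry.
Il24 (chr13:44910761-44911010, minus strand): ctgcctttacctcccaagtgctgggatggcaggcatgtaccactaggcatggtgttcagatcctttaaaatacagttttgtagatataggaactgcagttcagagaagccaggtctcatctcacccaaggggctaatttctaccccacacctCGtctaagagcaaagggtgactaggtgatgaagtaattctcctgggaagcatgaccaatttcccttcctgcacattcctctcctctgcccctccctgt
Il20 (chr13:44936894-44937143, minus strand): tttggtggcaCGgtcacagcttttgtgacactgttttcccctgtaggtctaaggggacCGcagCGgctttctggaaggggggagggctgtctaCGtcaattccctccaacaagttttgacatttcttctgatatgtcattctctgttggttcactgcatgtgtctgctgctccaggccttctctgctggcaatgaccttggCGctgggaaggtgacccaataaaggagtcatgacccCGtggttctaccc
Il19 (chr13:44958715-44958964, minus strand): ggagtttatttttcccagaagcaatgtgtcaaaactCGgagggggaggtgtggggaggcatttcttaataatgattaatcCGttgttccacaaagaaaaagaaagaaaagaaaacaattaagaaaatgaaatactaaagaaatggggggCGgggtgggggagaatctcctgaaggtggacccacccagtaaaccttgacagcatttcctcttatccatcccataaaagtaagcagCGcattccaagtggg
Il24 has 1 CpG in this window, Il20 has 6 and Il19 has 4, so the highest ligand gene had fewer CpG than either neighbour. The Il24 window also holds 1 match to TTCNNNGAA, a palindromic pattern that STAT factors can bind, as ttcagagaa with its first base at -152 from the start. That pattern occurs in 7.52% of all promoters of this length, and in 5.77% of those of detected genes. Il20 lacks it and Il19 has a match, so its presence did not separate the detected gene from its neighbours. A match is a description of letters and no evidence of binding.

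**Figure D2:**
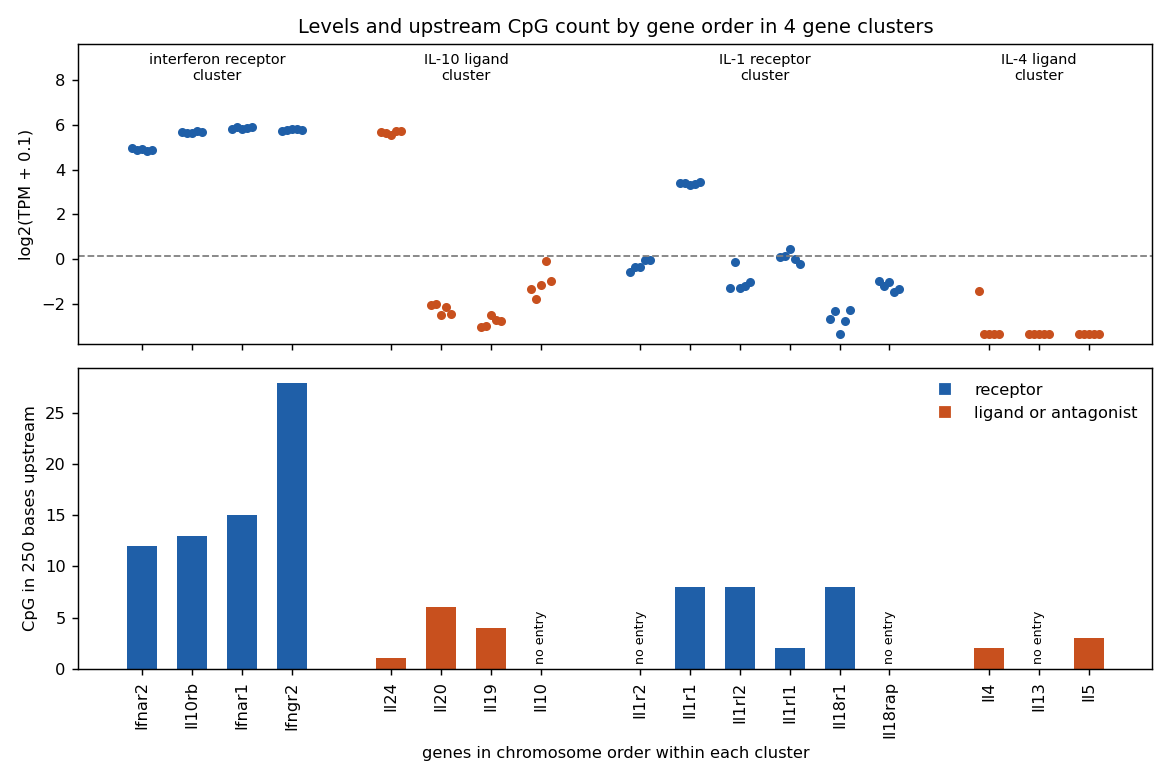
Upper panel, log2(TPM + 0.1) for the members of 4 gene clusters in chromosome order, 1 point per library and a dashed line at 1 TPM; lower panel, the number of CpG in the 250 bases upstream. All 4 genes of the interferon receptor row are above the line and carry 12 to 28 CpG, whereas Il24 is the only gene above the line in its row and carries 1.

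Across all genes with a promoter entry (66 of 83), detected receptors had a median of 14 CpG (n = 19) and undetected receptors of 4 (n = 15). That split is near the background, medians of 16 and 4 over all detected and undetected genes of the TPM table. Detected ligands or antagonists had a median of 3 (n = 9) and undetected ones of 4 (n = 22). No test was run on these counts. Il18bp has 0 CpG in its window while Il1rap has 33.

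The IL-1 receptor family had 2 of 9 members detected, and those were the chains of the IL-1 receptor itself. Il1rap, the accessory chain that IL-1, IL-33 and IL-36 receptors share, had 27.2, 29.5, 28.5, 27.8 and 26.5 TPM in replicates 1 to 5. Il1r1, the IL-1 binding and signalling chain, had 10.3, 10.5, 9.92, 10.0 and 10.8 TPM. Il1r1 lay below Il1rap in 5 of 5 libraries, with a difference of -1.43 ± 0.0911 (limma, adjusted p = 5.73e-07), while in CPM it was at 0.0055 and no longer called. Il1r2, a decoy that binds IL-1 without signalling, had 0.583, 0.687, 0.683, 0.881 and 0.872 TPM. Il1r1 exceeded it by 3.64 ± 0.219 in 5 of 5 libraries (limma with each ratio's own variance, adjusted p = 9.18e-06).

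The private chains for the other IL-1 family ligands were low. Il1rl1, the IL-33 receptor, had 0.957, 0.998, 1.29, 0.917 and 0.750 TPM in replicates 1 to 5, passing 1 TPM in 1 library. Il1rl2, for IL-36, was at 0.434 ± 0.224 TPM. Il18r1 and Il18rap, the chains for IL-18, were at 0.0621 ± 0.0431 and 0.341 ± 0.0589 TPM, a difference of -1.48 ± 0.534 in 5 of 5 libraries (limma with each ratio's own variance, adjusted p = 0.00448). On chromosome 9, Il1r2, Il1r1, Il1rl2, Il1rl1, Il18r1 and Il18rap form a row, and Il1r1 alone was detected in it. Il1rapl1 and Il1rapl2, which encode synaptic adhesion proteins of neurons, were at 0.141 ± 0.0505 and 0.0356 ± 0.0402 TPM. Their ranges overlapped, although Il1rapl1 was above Il1rapl2 in 5 of 5 libraries, by 0.85 ± 0.493 (limma with each ratio's own variance, adjusted p = 0.0263).

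Of 11 ligands or antagonists of the IL-1 family 4 were detected, Il18bp, Il18, Il33 and Il1a. Il18 had 10.6, 5.31, 10.3, 6.69 and 11.2 TPM in replicates 1 to 5, with the largest log2 SD of any detected member, 0.473. Replicates 2 and 4 were low and the other libraries lay close together. Il18bp, which binds and neutralises IL-18, had 11.4, 11.7, 12.3, 15.2 and 14.6 TPM. Il18bp exceeded Il18 by 0.61 ± 0.507 in 5 of 5 libraries (limma, adjusted p = 0.0392), and this call was lost with each ratio's own variance (adjusted p = 0.0618) and without replicate 2 (0.47, adjusted p = 0.0934) or replicate 4 (0.46, adjusted p = 0.181). Named transcripts gave only 9.03% of the Il18 gene level, so its isoforms were not described, and in their sums the difference was 4.06. The macrophage list was lowest in replicate 2, as Il18 was, but stood at 2074 TPM in replicate 4, where Il18 was also low; its part was not tested.

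Il33, a nuclear alarmin released by damaged cells, had 8.30, 8.47, 7.51, 7.56 and 7.52 TPM in replicates 1 to 5. It exceeded its receptor Il1rl1 by 2.90 ± 0.264 in 5 of 5 libraries (limma with each ratio's own variance, adjusted p = 3.65e-05). Named transcripts held 16.9% of the Il33 level, and in their sums the difference was 0.23 (limma, adjusted p = 0.393), no longer past the threshold, as in CPM (0.23).

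Il1a and Il1b, the agonists of Il1r1, were low. Il1a had 2.66, 2.75, 4.30, 4.04 and 3.91 TPM in replicates 1 to 5, with replicates 1 and 2 below the others and a log2 SD of 0.320. Il1b, the form that caspase-1 cleaves in macrophages, had 0.373, 0.133, 0.331, 0.166 and 1.22 TPM and passed 1 TPM in replicate 5 alone. Il1b lay below Il1a by -3.01 ± 0.944 on the log2 scale in 5 of 5 libraries (limma with each ratio's own variance, adjusted p = 0.00245). Il1rn, the receptor antagonist, had 0.862, 0.4998, 0.790, 0.935 and 1.08 TPM. Il1rn exceeded Il1b by 1.05 ± 0.772 in 4 of 5 libraries (limma, adjusted p = 0.0348), but not with each ratio's own variance (adjusted p = 0.0514), with other pseudocounts, or without replicate 1, 2, 3 or 4 (0.82 to 1.05). Il36b, Il36g and Il36rn, epithelial ligands and an antagonist, had means of at most 0.137 TPM.

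Signalling genes downstream of Il1r1 were mostly detected, beside a detected share of 41.3% over all genes of the table. Of 11 genes of IL-1 receptor signalling 10 were detected, led by the kinase gene Irak1 at 61.8 ± 2.59 TPM, the inhibitor Tollip at 56.6 ± 0.879 TPM and Irak3, a kinase-dead inhibitor, at 50.7 ± 2.36 TPM. The adaptor Myd88 was at 26.5 ± 1.60 TPM, and Sigirr, a decoy-like receptor, was the undetected gene at 0.164 ± 0.0949 TPM. Of 8 inflammasome and IL-1 processing genes 6 were detected, Casp4 at 218 ± 15.6 TPM and Casp1 at 7.41 ± 1.61 TPM among them. Nlrp3, a sensor that activates caspase-1, had 3.92, 2.61, 4.37, 3.64 and 3.58 TPM in replicates 1 to 5, with replicate 2 lowest.

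Type I receptor chains were detected for 7 of 18, and their sum was 150.4 ± 4.97 TPM. Il4r, the chain that binds IL-4, had 35.04, 30.1, 35.6, 35.9 and 38.8 TPM in replicates 1 to 5. Il13ra1, which joins Il4r in the receptor for IL-13, had 32.0, 34.9, 33.8, 34.3 and 34.2 TPM. These chains overlapped in level, with Il13ra1 minus Il4r at -0.05 ± 0.152 and a range of -0.18 to 0.21 over libraries (limma, adjusted p = 0.590), which does not show that they are equal. The sign was the other way in named transcript sums (0.18, limma adjusted p = 0.0876) and in CPM, where Il13ra1 was called higher (0.26, limma adjusted p = 0.0243). Il2rg, the common gamma chain, had 16.7, 14.8, 14.7, 15.2 and 16.6 TPM. Il4r exceeded Il2rg by 1.16 ± 0.111 in 5 of 5 libraries (limma, adjusted p = 2.74e-06), and by 2.76 in sums of named transcripts, which hold 28.0% of the Il2rg level. Il13ra2, a second IL-13 binding chain often described as a decoy, had 0.0424, 0.136, 0.225, 0.0376 and 0.0976 TPM, and Il13ra1 exceeded it by 7.43 ± 0.504 in 5 of 5 libraries (limma with each ratio's own variance, adjusted p = 2.69e-05).

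The genes of IL-4 and IL-13 were at or near 0: Il4 had 0.280 TPM in replicate 1 and was at 0 in the others, and Il13 was at 0 in all. Il4, Il13 and Il5, an eosinophil growth factor gene, lie together on chromosome 10 with Rad50 between Il13 and Il5, and none of the 3 was detected.

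Other chains that pair with Il2rg were split. Il7r, for IL-7, was at 4.98 ± 0.367 TPM and Il21r, for IL-21, at 2.71 ± 0.513 TPM. Il2ra, Il2rb, Il9r and Il15ra, the private chains for IL-2, IL-9 and IL-15, were at 0.0584 ± 0.0525, 0.337 ± 0.116, 0.0952 ± 0.0421 and 0.315 ± 0.127 TPM. Il15, a growth factor for lymphocytes, had 1.40, 1.76, 1.90, 2.67 and 1.48 TPM in replicates 1 to 5, the second-largest log2 SD of the detected genes (0.349), with replicate 4 highest. Its named transcripts held 45.2% of that level, on only 49.5 estimated reads over the 5 libraries. Il15ra, which presents IL-15 to other cells, had 0.228, 0.298, 0.520, 0.331 and 0.196 TPM. Il15 exceeded it by 2.24 ± 0.366 in 5 of 5 libraries (limma with each ratio's own variance, adjusted p = 0.000312). In sums of named transcripts the difference was 1.11 ± 2.36 (limma, adjusted p = 0.0276). That SD is larger than the difference, and no p from each ratio's own variance is given for it, so this call is doubtful. In CPM the difference did not pass the threshold (0.63, limma adjusted p = 0.169). Il7r also serves TSLP, an epithelial cytokine linked to itch: Tslp was at 16.1 ± 1.56 TPM and its private receptor chain Crlf2 at 45.4 ± 3.24 TPM.

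Il11ra1, the IL-11 receptor that signals through the shared chain Il6st, had 31.4, 29.1, 28.4, 27.1 and 30.4 TPM in replicates 1 to 5. Its ligand gene Il11 had 0.701, 0.839, 0.687, 1.18 and 1.06 TPM, and Il11ra1 exceeded it by 4.91 ± 0.359 in 5 of 5 libraries (limma with each ratio's own variance, adjusted p = 2.50e-05). Il11ra1 overlaps Ccl27 (25.1 TPM) in the annotation, so its level is uncertain. Il3ra, the alpha chain for IL-3, had 23.4, 28.5, 25.6, 26.3 and 29.1 TPM, while Csf2rb, the beta chain it needs, was at 2.71 ± 0.618 TPM. Il31ra, the IL-31 receptor known from itch neurons in mice, was undetected at 0.339 ± 0.148 TPM, beside its partner Osmr at 47.9 ± 1.82 TPM.

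Chains for the IL-12 group were below 1 TPM: Il12rb2 was at 0.677 ± 0.124, Il27ra at 0.206 ± 0.0432, Il12rb1 at 0.136 ± 0.0576 and Il23r at 0.0434 ± 0.0465 TPM. Of the ligand subunits of this group, Il23a was detected at 1.77 ± 0.384 TPM. Il12b, with which it forms IL-23, was at 0. Il27 was at 0.683 ± 0.291 TPM and its partner Ebi3 at 5.84 ± 1.62 TPM.

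The IL-17 receptor family had 4 of 5 chains detected, with a sum of 35.9 ± 2.15 TPM. Il17ra, the chain common to the IL-17 receptors, had 18.7, 16.9, 16.6, 16.8 and 16.7 TPM in replicates 1 to 5. Il17rc, its partner for IL-17A and IL-17F, had 13.5, 12.2, 10.6, 12.8 and 11.8 TPM. Il17ra exceeded Il17rc by 0.49 ± 0.0902 in 5 of 5 libraries (limma, adjusted p = 0.000353), and by 0.80 in sums of named transcripts. Il17re, the partner for IL-17C, had 1.30, 1.11, 0.950, 1.41 and 0.863 TPM and was undetected through 2 libraries, and Il17ra exceeded it by 3.83 ± 0.243 in 5 of 5 libraries (limma with each ratio's own variance, adjusted p = 1.53e-05).

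Il17rd, an inhibitor of FGF signalling as well as an IL-17 receptor family member, was at 4.18 ± 0.250 TPM, and Il17rb at 1.23 TPM; both overlap genes of at least 25% of their own TPM (Arhgef3 for Il17rd, Actr8 and Chdh for Il17rb), so both levels are uncertain. Of 6 IL-17 ligands only Il17d was detected, at 2.74 ± 0.297 TPM, and none of its level came from named transcripts. Il17a, Il17b, Il17c, Il17f and Il25 had means of at most 0.204 TPM. The IL-17 adaptor gene Traf3ip2 was at 7.89 ± 0.748 TPM.

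Il34 was the second ligand by level, and its receptor was present. Interleukin-34 is a second ligand of Csf1r, the receptor that sustains macrophages, beside Csf1. Il34 had 28.3, 42.2, 42.2, 48.8 and 43.6 TPM in replicates 1 to 5, and replicate 1 stood below the rest. Csf1 had 25.2, 22.9, 26.0, 26.6 and 23.7 TPM, with no such gap. Il34 exceeded Csf1 by 0.70 ± 0.307 in 5 of 5 libraries (limma, adjusted p = 0.00145), by 0.17 in replicate 1 and by 0.70 to 0.88 in the others; in CPM the order turned round (-0.59). Csf1r was at 38.0 ± 5.33 TPM, and Ptprz1 and Sdc1, which also bind interleukin-34, were at 44.0 ± 2.60 and 77.3 ± 2.83 TPM. The summed Schwann cell markers were also lowest in replicate 1 (6951 TPM, against 7657 to 7957 in the others); their part in the Il34 level was not tested.

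Il16, the other ligand outside the large families, had 2.21, 3.53, 3.29, 3.46 and 3.77 TPM and was likewise lowest in replicate 1. Il16 lay below Il34 by -3.62 ± 0.108 on the log2 scale in 5 of 5 libraries (limma, adjusted p = 1.24e-12). The ratio of these genes varied less between libraries than either gene, whose log2 SD were 0.296 for Il16 and 0.299 for Il34. Il4i1, which matches the symbol rule but encodes a secreted amino acid oxidase, was at 3.30 ± 0.437 TPM. It overlaps Atf5 (984 TPM) and Nup62 (57.2 TPM), so its level is uncertain.

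**Figure D3:**
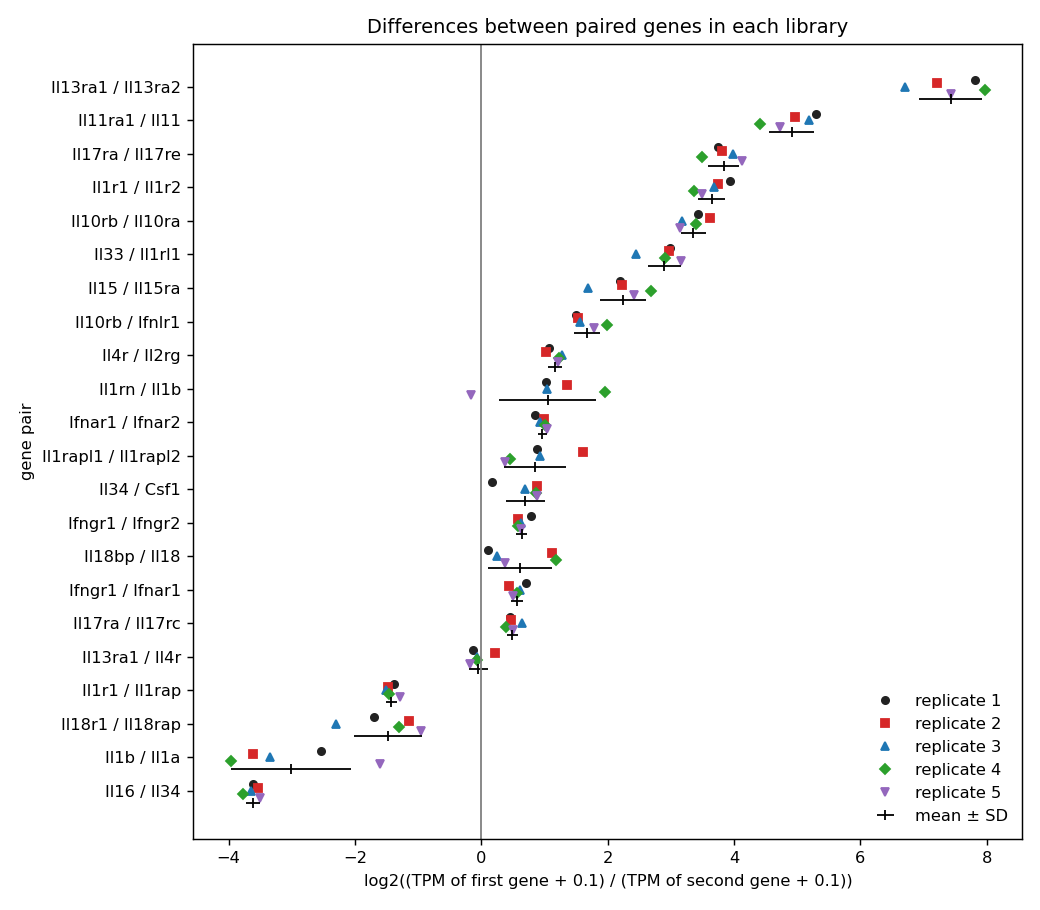
Log2 difference of 22 gene pairs on the log2(TPM + 0.1) scale, first gene minus second, with a symbol per library and the mean ± SD in black. Differences run from 7.43 for Il13ra1 over Il13ra2 to -3.62 for Il16 under Il34, and Il13ra1 against Il4r is the pair whose libraries fall on both sides of 0 around a mean of -0.05, beside Il1rn against Il1b.

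When ligands were set beside the receptors they are known to use, 15 of 30 ligand-receptor complexes had every chain detected. For 12 of these 15 no ligand gene was detected, among them interferon gamma, type I and type III interferon, IL-4, IL-10, IL-11 and IL-17A or IL-17F. Over the whole family only 25.6% of ligands or antagonists and 48.8% of receptor chains were detected, so many complexes without a detected ligand gene are the background. The levels of Ifnar2 (type I interferon), Il11ra1 (IL-11) and Il17rb (IL-25) are uncertain because of overlapping genes. The 3 with a detected ligand gene as well were IL-34 with Csf1r, TSLP with Il7r and Crlf2, and IL-1 with Il1r1 and Il1rap through Il1a. In 7 other complexes a ligand gene was detected but not every chain: IL-24 by both of its routes, IL-33, IL-18, IL-15, IL-23 and IL-27. IL-18 and IL-23 had no chain detected. For IL-23 the detected ligand gene was Il23a, with its partner Il12b at 0, and for IL-27 it was Ebi3, with Il27 undetected. The other 8 had neither every chain nor a ligand gene detected. These complexes were listed after levels had been seen, and RNA of chains in a mixed culture does not say that they are made by the same cell.

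**Figure D4:**
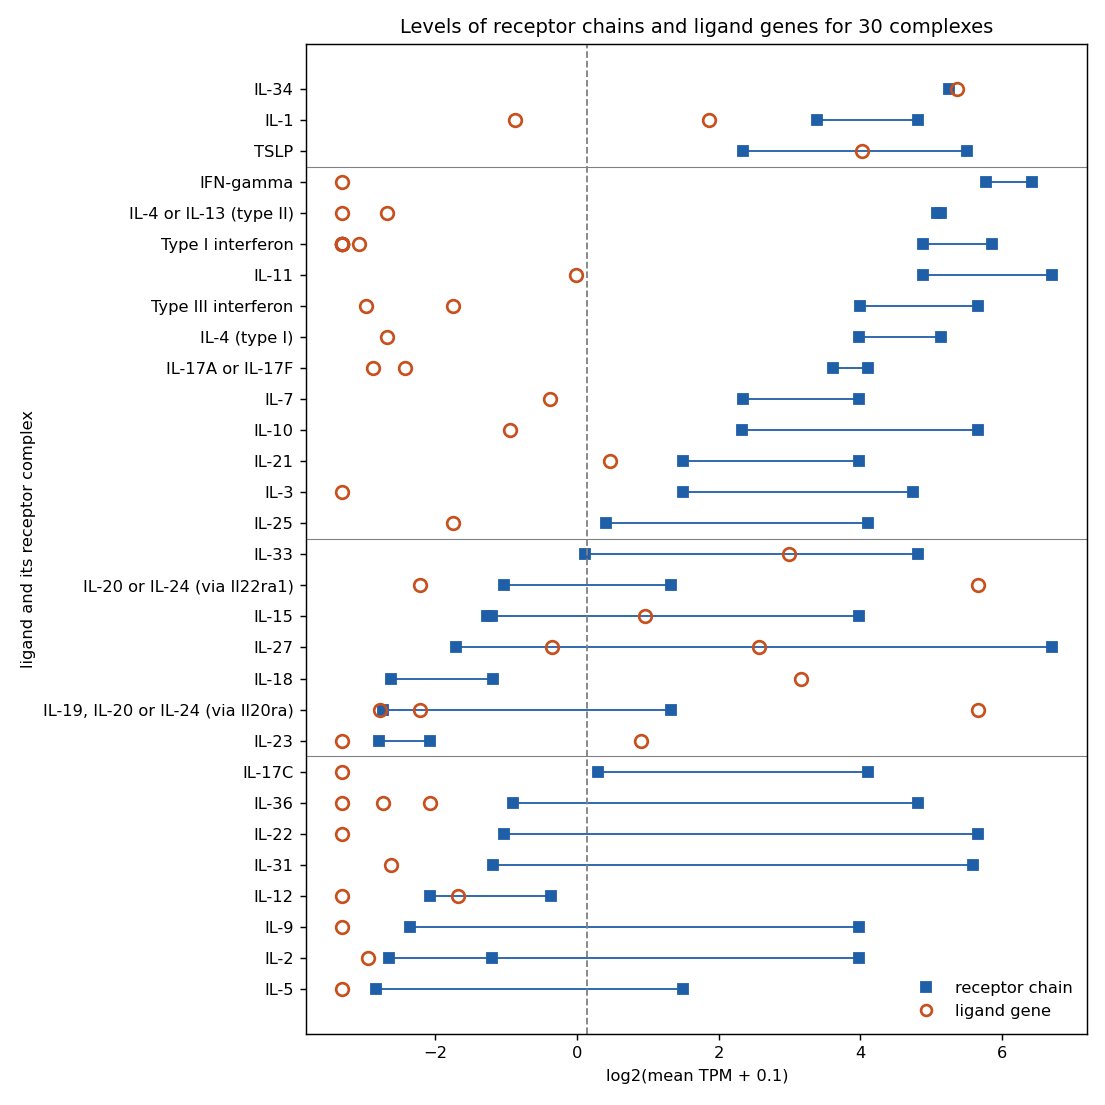
Log2(mean TPM + 0.1) of the receptor chains (blue squares, joined by a line) and ligand genes (orange circles) of 30 complexes, with a dashed line at 1 TPM. The top blocks are the 3 complexes with all chains and a ligand gene detected, and the 12 with all chains and no ligand gene. Below are the 7 with a ligand gene but not all chains, and the 8 with neither all chains nor a ligand gene. Detection asks for 1 TPM in every library, so Il17re and Il21 lie right of the line by their means while undetected.

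The JAK and STAT genes that serve the type I and interferon receptors were detected almost in full. All 4 JAK kinase genes were, led by Jak1 at 93.4 ± 3.29 TPM and Jak2 at 79.3 ± 1.83 TPM, with Tyk2 and Jak3 at 11.003 ± 0.366 and 9.53 ± 0.910 TPM. Of 7 STAT genes 6 were detected, among them Stat3 at 177 ± 5.25 TPM and Stat6, the IL-4 responsive factor, at 64.3 ± 0.927 TPM. Stat4, which acts behind the IL-12 receptor, was undetected at 0.406 ± 0.135 TPM. All 8 SOCS family genes were detected, with Socs3 at 116 ± 8.03 TPM and Socs5 at 110.3 ± 4.81 TPM highest and Socs1 at 1.66 ± 0.347 TPM lowest. Over the 8 pathway lists 45 of 57 genes were detected, beside 41.3% of all genes of the table. These genes serve many other receptors.

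Between libraries, levels of the detected genes had a median log2 SD of 0.128, beside 0.0803 for all detected genes, and 22 of 32 lay above the latter value. Lower genes vary more: at a threshold of 5 TPM in every library the medians were 0.0778 for 20 genes of the family and 0.0687 for all genes. Il18, Il15 and Il1a were the most variable, and Ifnar1, Ifngr2 and Ifnar2 among the least, at 0.0405, 0.0435 and 0.0456. Of the 32 detected genes, 11 were lowest in replicate 1, 7 in replicate 2, 9 in replicate 3, 4 in replicate 4 and 1 in replicate 5. The same counts were not taken over all detected genes of the table, so no excess in a replicate can be read from them. The 7 lowest in replicate 2, where 12 of 13 macrophage markers were also lowest, were Ifngr1, Il10rb, Il4r, Il18, Il7r, Il10ra and Il21r. Of these, Il10rb was nearly level in replicates 2 and 3, at 48.8 and 49.0 TPM. Ifngr1 and Il7r were highest in replicate 1, which had the second-lowest macrophage sum. The 11 lowest in replicate 1 were Ifnar1, Ifngr2, Il34, Il13ra1, Il3ra, Il18bp, Il1a, Il4i1, Il16, Il15 and Il17rb. The part of cell makeup in these differences was not tested.

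**Figure D5:**
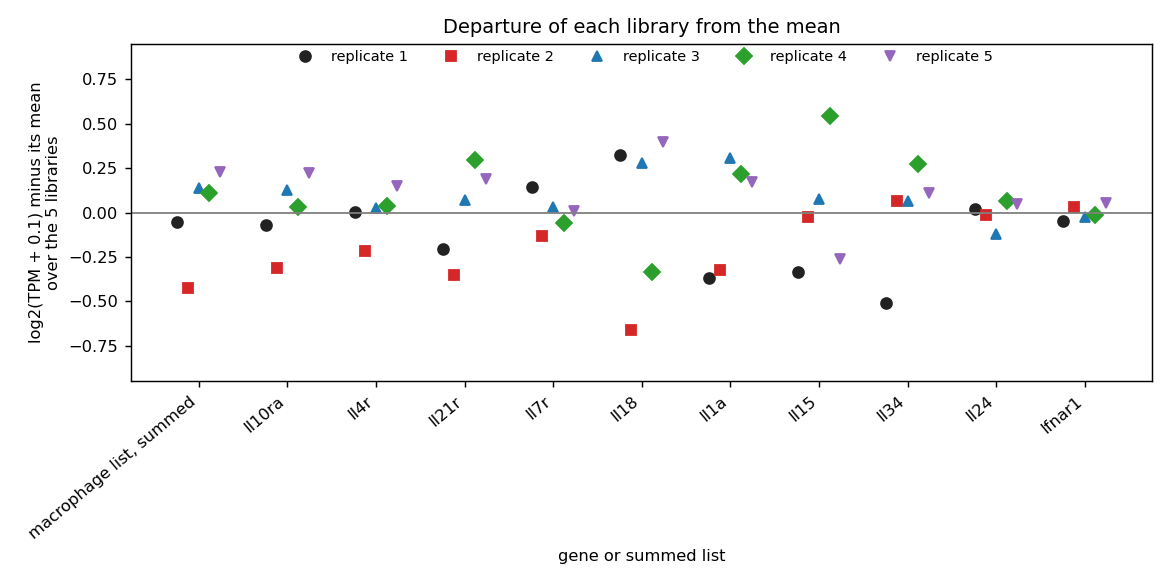
Departure of each library from the mean over 5 libraries, as log2(TPM + 0.1), for the summed macrophage marker list and 10 genes picked after their values were seen, with a symbol per library. Replicate 2 is lowest for the macrophage list, Il10ra, Il4r, Il21r, Il7r and Il18, replicate 1 is lowest for Il34, Il15 and Il1a, and Il24 and Ifnar1 vary little.

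Where the RefSeq table named most transcripts of a gene, the share of each transcript could be given. A transcript of 1854 bases held 66.9% ± 3.67 of the named Ifngr1 TPM and 1 of 2017 bases the rest. For Il10rb a transcript of 1805 bases held 76.3% ± 1.56. Il10ra was divided between transcripts of 2997 and 1814 bases, at 60.5% ± 3.20 and 39.5% ± 3.20. Some other splits were much less steady between libraries. The leading transcript held 48.0% ± 18.2 for Il1r1, 59.0% ± 25.8 for Il16 and 58.9% ± 37.1 for Il4i1. Of 32 detected genes, 21 had named transcripts that summed to 80% to 120% of the gene level, and 9 were under 50%, so the split could not be given for all.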

How the data were processed

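Poly-A RNA of 5 libraries was sequenced. The submitters' processing notes name the build mRatBN7.2 and, as tools, Salmon 1.5.1 (quantification), Trim Galore 0.6.6 and cutadapt 2.8. No strand setting is given in the sources used. TPM per gene comes from a combined table that the authors deposited, and the deposited quantification files hold TPM and an estimated count of reads (expected counts, not whole) for 98811 transcripts per library. From these, genes were called detected at 1 TPM in every library, and sums by role were taken. For 22 gene pairs the log2 ratio of TPM + 0.1 was tested with limma 3.58.1 (R 4.3.3, intercept only, empirical Bayes, two-sided), adjusted over all genes of each fit. The fit was also run on simulated data, with Il4r as the second gene and genes with a mean of at least 1 TPM. That simulation did not cover pairs whose second gene is low. An exact sign-flip test over 5 libraries cannot go below p = 0.0625. Estimated transcript counts of each library pair differed by more than counting noise (chi-square per degree of freedom of 18.1 to 21.0), and no pair was counted as a single sample. Such estimates also carry error from assigning reads to transcripts, which this measure does not separate. It therefore cannot show whether libraries are separate samples or share a cell preparation or RNA. Transcripts were named through a RefSeq table of build GRCr8 (67330 of 98811, 68.1%), which also gave gene order, overlaps and promoters; no expression coordinates are given. Overlaps over 25% of a gene's TPM are named as uncertain (5 detected genes). Genes named are all detected members, with values per library for the 12 highest, for pairs with a detected gene and for the 3 of highest log2 SD, and undetected members by role. The members, roles, pairs and pathway lists were chosen with earlier results of these data known, and the complexes, gene rows and other values per library after values were seen. Alternatives covered thresholds, pseudocounts, filters, transcript sums, CPM (read counts scaled to library size, without length), and leaving out each library.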

Additional observations from a re-analysis of the deposited data

Results flagged for a closer look

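Tests of a single library lying far from the other 4 were run for 32 detected genes, 19 pair differences and 9 summed levels, by the gap to the nearest library divided by the whole range, with a critical value of 0.71 for 5 libraries. Chance flags about 1 in 20 groups, and 4 values passed. Il17ra had a highest library that stood apart (0.856): 18.7 TPM in replicate 1, against 16.6 to 16.9 TPM in the others. The sum of type I receptor chains was high in replicate 5 (0.796), at 159 TPM against 146.6 to 149.2 TPM in the others. Il34 minus Csf1 had a low library (0.744), replicate 1 at 0.17, against 0.70 to 0.88. Ifngr1 minus Ifngr2 had a high library (0.718), replicate 1 at 0.79, against 0.57 to 0.63.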

How the results depend on the processing

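Detected members numbered 37, 28 and 20 at thresholds of 0.5, 2 and 5 TPM, and 25 in sums of named transcripts. Leaving out each library gave 32 or 33 detected members (33 without replicate 2, where Il21 is at 0), 45 or 46 pathway genes and 15 complexes in every case. At 5 TPM 9 complexes had all chains, and the median log2 SD of members was 0.0778. In sums of named transcripts, the summed TPM fell to 20.1 for IL-1 family ligands and antagonists, 31.7 for IL-1 receptors, 6.18 for helical ligands of type I receptors, 132 for type I receptor chains, 243 for interferon and IL-10 receptor chains, 0.524 for IL-17 ligands and 28.7 for IL-17 receptor chains, because unnamed transcripts are left out. Those sums gave Il33 minus Il1rl1 as 0.23, without its call, and Il13ra1 minus Il4r as 0.18. They kept the call but moved the value by over 1.5 times for Ifngr1 minus Ifngr2 (0.38), Ifnar1 minus Ifnar2 (3.87), Il10rb minus Ifnlr1 (3.34), Il18bp minus Il18 (4.06), Il4r minus Il2rg (2.76), Il17ra minus Il17rc (0.80) and Il15 minus Il15ra (1.11). The last of these had an SD of 2.36, larger than its value, so its kept call is doubtful.

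In CPM of named transcripts, not divided by length, the sign reversed for 5 pairs: Ifngr1 minus Ifngr2 (-0.13), Ifngr1 minus Ifnar1 (-0.72), Il1r1 minus Il1rap (0.0055), Il13ra1 minus Il4r (0.26, now called, limma adjusted p = 0.0243) and Il34 minus Csf1 (-0.59). Il33 minus Il1rl1 (0.23) and Il15 minus Il15ra (0.63) lost their calls there. Calls were kept with values over 1.5 times apart for Ifnar1 minus Ifnar2 (5.64), Il10rb minus Ifnlr1 (3.58), Il1r1 minus Il1r2 (5.48), Il18bp minus Il18 (2.90), Il4r minus Il2rg (4.04), Il17ra minus Il17rc (1.58), Il1rapl1 minus Il1rapl2 (2.47) and Il16 minus Il34 (-2.11). Il1rn minus Il1b lost its call at pseudocounts of 0.01 (1.30) and 1 (0.38) and with each ratio's own variance (1.05), and ran from 0.82 to 1.35 without each library in turn. Il18bp minus Il18 lost its call at a pseudocount of 0.01 (0.61) and with each ratio's own variance (0.61), and ran from 0.46 to 0.73 without each library. Differences of low genes kept their call but shrank at a pseudocount of 1, for Il1b minus Il1a (-1.68), Il18r1 minus Il18rap (-0.34), Il15 minus Il15ra (1.10) and Il1rapl1 minus Il1rapl2 (0.14), and at 0.01 grew for Il18r1 minus Il18rap (-2.66) and Il1rapl1 minus Il1rapl2 (2.23). The other 20 of 22 pairs kept their side of the threshold with each ratio's own variance and without each library.

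No pair could pass the exact sign-flip test, whose smallest p is 0.0625. The values it failed for were 0.64 (Ifngr1 minus Ifngr2), 0.96 (Ifnar1 minus Ifnar2), 0.56 (Ifngr1 minus Ifnar1), 3.35 (Il10rb minus Il10ra), 1.67 (Il10rb minus Ifnlr1), -1.43 (Il1r1 minus Il1rap), 3.64 (Il1r1 minus Il1r2), 1.05 (Il1rn minus Il1b), -3.01 (Il1b minus Il1a), 0.61 (Il18bp minus Il18), -1.48 (Il18r1 minus Il18rap), 2.90 (Il33 minus Il1rl1), 1.16 (Il4r minus Il2rg), 7.43 (Il13ra1 minus Il13ra2), 0.49 (Il17ra minus Il17rc), 3.83 (Il17ra minus Il17re), 2.24 (Il15 minus Il15ra), 0.70 (Il34 minus Csf1), 4.91 (Il11ra1 minus Il11), 0.85 (Il1rapl1 minus Il1rapl2) and -3.62 (Il16 minus Il34). Reads limit the lowest genes: the 9 members at 0 allow up to 0.0539 to 0.233 TPM.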
